A study of Mus musculus with 11 samples.

Results

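The transforming growth factor beta (TGF-beta) genes examined were the ligands Tgfb1, Tgfb2 and Tgfb3, the receptors Tgfbr1, Tgfbr2, Tgfbr3, Eng and Acvrl1, and the readouts Smad7 and Tgfbi. They were chosen by symbol, with earlier results of these data known, and all 10 were found among the 24062 genes listed for each library. Reads were counted in primary lung mesenchymal cells of mouse embryos at embryonic day 15 that carried both copies of Sp3 (WT, 4 libraries), 1 copy (Sp3+/-, 4 libraries) or none (Sp3-/-, 3 libraries). All embryos came from matings of Sp3+/- mice, so the Sp3-/- cells had been without an intact copy throughout development. The cells were selected by how quickly they stuck to culture plastic and were passaged before RNA was taken, so that other adherent cells can be among them. The labels give each library its own number but do not say that each is a separate embryo, and the p-values measure only the spread between these libraries. In such bulk RNA, fewer cells of a type and less RNA per cell cannot be told apart.

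TGF-beta ligands are secreted in a latent complex bound to matrix. Once released, a ligand brings together the type II receptor Tgfbr2 and a type I receptor, Tgfbr1 in most cells or Acvrl1 in endothelium, and these phosphorylate SMAD proteins that enter the nucleus. Tgfbr3 (betaglycan) and Eng (endoglin) are co-receptors that present ligand. In the fetal lung, mesenchymal TGF-beta signalling is known for its part in matrix deposition, smooth muscle differentiation and airway branching. Sp3 is a zinc finger transcription factor that binds GC boxes and can activate or repress.

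Sp3 was low in every library labelled Sp3-/-. Its level, in log2 CPM, where CPM is reads on a gene scaled to the size of its library, was 4.23 in library 685-1, 4.16 in 697-2 and 3.89 in 697-5, against 5.94 to 6.75 in WT and 5.71 to 6.15 in Sp3+/- libraries. The fitted Sp3 change against WT was -2.30 on the log2 scale (SE 0.21, adjusted p = 0.00611, edgeR), and remaining reads numbered 144 to 810 per Sp3-/- library. Counts per gene do not show where in Sp3 those reads lie. The counts carry between 9849111 and 59297495 reads on genes per library, and the smallest of the 11 was Sp3-/- library 697-5. No pair of libraries of a genotype was alike within counting noise (lowest chi-square per degree of freedom 16.6). Library titles end in a suffix of unstated meaning. None of the Sp3-/- titles has one, nor have WT library 468-4 and Sp3+/- library 697-4. The other WT titles end in 3 and the other Sp3+/- titles in 2 or 3, so genotype and suffix were nearly confounded. The counts of 697-4 were deposited under a name that carries a suffix, unlike its title, and the title was used throughout. Vim, the mesenchymal intermediate filament gene, was at 10.99 to 11.59 log2 CPM in all 11 libraries, and the 12 lung mesenchyme markers summed to 3648 to 4156 CPM in WT, 3557 to 4091 in Sp3+/- and 2554 to 2808 in Sp3-/- libraries. Vim, the most abundant of these markers, weighs most in the sums, which therefore say little of the rarer ones. Of these markers only Meox2 was at 0 in any library, in 2 of them.

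The promoters are shown first, because Sp3 binds GC boxes. RefSeq windows (build GRCm38.p6, 250 bases before to 50 after a transcript start) were given for 6 of the 10 genes, and those below belong to the 5 with such a window whose level passed the test in a comparison of Sp3-/- cells with WT or Sp3+/- cells. GC boxes are in capitals, GGGCGG on the printed strand or CCGCCC where the box lies on the opposite strand. The windows are Tgfb2 at chr1:186705940-186706239 (minus strand), Eng at chr2:32646345-32646644 (plus), Tgfbr2 at chr9:116175314-116175613 (minus), Tgfbr1 at chr4:47352972-47353271 (plus) and Tgfb1 at chr7:25686752-25687051 (plus). The Tgfb2 window lies inside the annotated gene, which runs from 186622787 to 186709697.
Tgfb2: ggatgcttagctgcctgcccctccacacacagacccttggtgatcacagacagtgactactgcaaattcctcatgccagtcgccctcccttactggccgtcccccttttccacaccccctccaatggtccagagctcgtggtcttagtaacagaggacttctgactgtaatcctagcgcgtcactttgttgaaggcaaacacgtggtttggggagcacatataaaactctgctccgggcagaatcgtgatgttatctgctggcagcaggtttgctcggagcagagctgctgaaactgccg
Eng: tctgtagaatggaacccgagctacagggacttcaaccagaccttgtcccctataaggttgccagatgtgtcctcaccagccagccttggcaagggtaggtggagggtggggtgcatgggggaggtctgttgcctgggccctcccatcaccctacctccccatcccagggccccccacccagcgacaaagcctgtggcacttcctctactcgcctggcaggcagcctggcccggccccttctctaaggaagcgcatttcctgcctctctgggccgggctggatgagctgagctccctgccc
Tgfbr2: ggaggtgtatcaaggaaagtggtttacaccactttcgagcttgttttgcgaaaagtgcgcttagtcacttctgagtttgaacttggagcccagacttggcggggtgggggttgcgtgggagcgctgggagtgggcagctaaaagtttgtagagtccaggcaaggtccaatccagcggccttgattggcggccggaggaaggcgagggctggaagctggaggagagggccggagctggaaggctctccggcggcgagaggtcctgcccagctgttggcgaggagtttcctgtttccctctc
Tgfbr1: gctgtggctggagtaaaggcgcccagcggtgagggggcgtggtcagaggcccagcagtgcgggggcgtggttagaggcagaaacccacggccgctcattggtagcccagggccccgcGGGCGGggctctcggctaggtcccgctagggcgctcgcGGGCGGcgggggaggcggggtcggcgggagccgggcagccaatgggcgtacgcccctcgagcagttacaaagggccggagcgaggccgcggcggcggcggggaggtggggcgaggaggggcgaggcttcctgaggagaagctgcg
Tgfb1: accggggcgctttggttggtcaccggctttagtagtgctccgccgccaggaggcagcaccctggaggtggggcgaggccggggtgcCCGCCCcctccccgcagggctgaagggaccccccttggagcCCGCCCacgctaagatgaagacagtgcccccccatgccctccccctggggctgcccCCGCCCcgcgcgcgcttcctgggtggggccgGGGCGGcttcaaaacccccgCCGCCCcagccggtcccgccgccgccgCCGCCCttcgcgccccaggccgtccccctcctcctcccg
The Tgfb1 window held 6 GC boxes and the Tgfbr1 window 2, and 0 were found in those of Tgfb2, Eng and Tgfbr2. A second Tgfbr1 window, at chr4:47385966-47386265, held 0 and that of Tgfbi, at chr13:56609336-56609635, held 2. Of 32851 mouse windows of this length, 35.7% held at least 1 GC box, and 1.35% held 6 or more. CACCC, a related letter string searched on both strands, was in 57.5% of all windows, with 4 in Eng, 3 in Tgfb1, 1 each in Tgfb2 and Tgfbr2 and 0 in the printed Tgfbr1 window. These letter matches are a description of the windows and not of binding.

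In Sp3-/- cells Tgfb2 and Eng fell and Tgfbr2 rose against both other genotypes, and neither Smad7 nor Tgfbi passed the test in any comparison. Tgfb1 and Tgfbr1 were higher and Tgfb3 lower against Sp3+/- cells alone. Of the 10 genes, 3 passed the test against WT (edgeR quasi-likelihood test, adjusted p below 0.05), 2 of them lower and 1 higher. Of all 14025 genes tested, 18.5% passed (2599 genes). Against Sp3+/- cells 6 of the 10 passed, 3 lower and 3 higher, where 25.5% of 14130 genes did. In Sp3+/- against WT none of the 10 passed, and 0.0% of 14130 genes did. In that comparison edgeR called 0 genes, DESeq2 0 and limma-voom 0, and 246 genes had an unadjusted p below 0.05 with edgeR. The comparisons share libraries, so their results for a gene are not independent of each other.

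**Figure D1:**
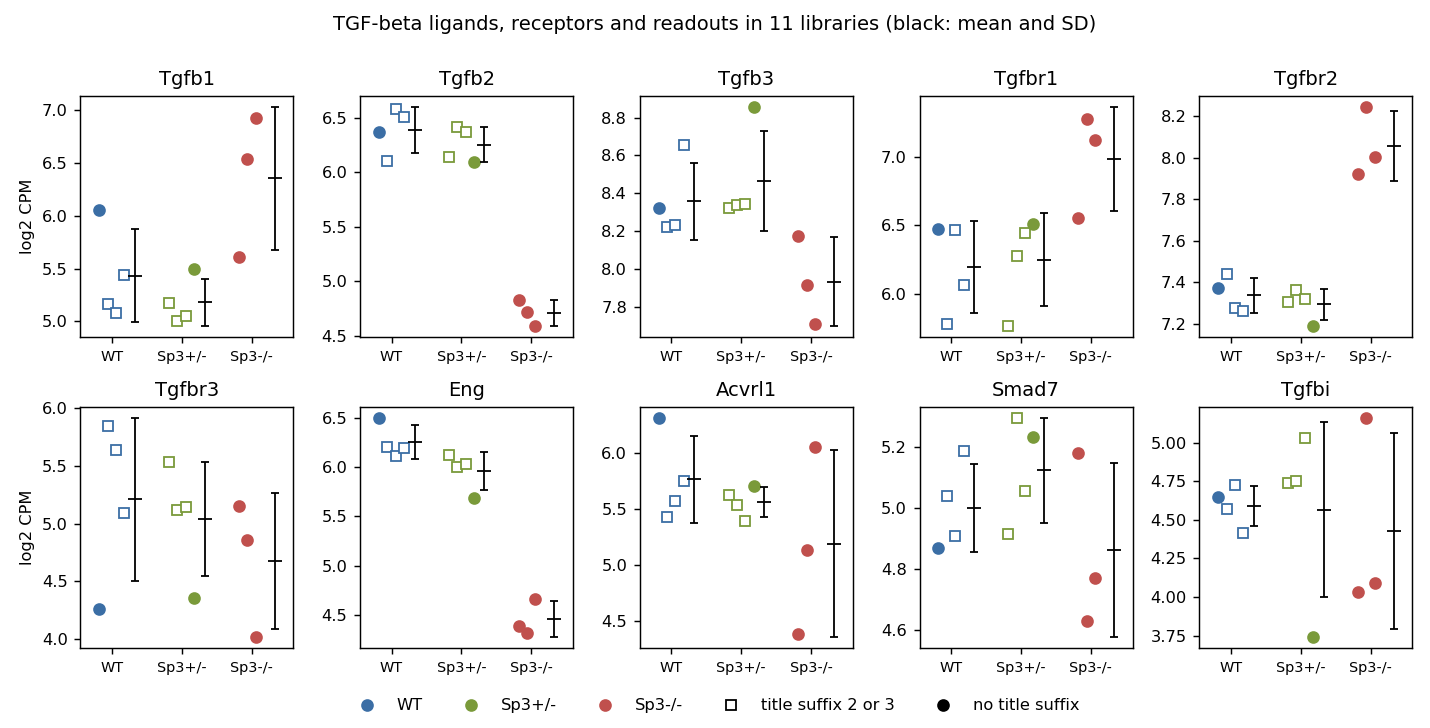
Level (log2 CPM) of the 10 TGF-beta genes in each of 11 libraries by genotype, with filled circles for libraries without a title suffix, open squares for the others, and black marks for the mean and SD of each genotype. The 3 Sp3-/- libraries lie below all others for Tgfb2 (4.59 to 4.83) and Eng (4.31 to 4.66) and above all others for Tgfbr2 (7.92 to 8.25).

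Among the ligands, Tgfb2, which is needed for heart and lung development in mice, fell. Its level in log2 CPM was 6.37, 6.10, 6.58 and 6.51 in WT libraries 468-4, 685-2, 697-1 and 697-3. In Sp3+/- libraries 468-3, 685-5, 685-7 and 697-4 it was 6.14, 6.41, 6.37 and 6.09. The 3 Sp3-/- libraries 685-1, 697-2 and 697-5 had 4.83, 4.72 and 4.59, below every other library and closer to each other than the WT libraries were. Tgfb2 was thus 3.21-fold lower than in WT (log2 fold change -1.68, SE 0.14, adjusted p = 0.00611) and 2.92-fold lower than in Sp3+/- cells (-1.55, SE 0.13, adjusted p = 0.000492). It was called in 7 of 7 fits against WT that left out a library, with a highest adjusted p of 0.0379 without Sp3-/- library 697-2. With the title suffix as a covariate in a fit of all 11 libraries the Tgfb2 change against WT was -1.57 (adjusted p = 0.00397). Between Sp3+/- and WT the fitted Tgfb2 change was -0.14 (SE 0.12), and those groups overlapped.

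Tgfb1, the ligand made by many cell types including macrophages, leaned the other way with a wide spread. Its log2 CPM was 6.05, 5.16, 5.08 and 5.44 in the WT libraries in the same order, and 5.17, 5.00, 5.05 and 5.50 in Sp3+/-. In Sp3-/- cells Tgfb1 was at 5.61, 6.54 and 6.92. Libraries 697-2 and 697-5 were above all others, but 685-1 was below WT library 468-4. The fitted Tgfb1 change against WT was 0.97 (SE 0.35) and did not pass (adjusted p = 0.0851), whereas against Sp3+/- cells, where the groups did not overlap, it rose by 1.26 on the log2 scale (SE 0.30, adjusted p = 0.0162). Without WT library 468-4 or without Sp3-/- library 685-1 Tgfb1 was called against WT as well, at 1.22 (adjusted p = 0.0314) without 468-4. The call against Sp3+/- was lost without Sp3-/- library 697-2 or 697-5 (highest adjusted p 0.0576) and with the suffix covariate (0.82, adjusted p = 0.179).

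Tgfb3, the ligand with the highest level in these cells, was at 8.32, 8.22, 8.23 and 8.66 log2 CPM in WT and at 8.32, 8.34, 8.34 and 8.86 in Sp3+/-. Sp3-/- libraries had 8.18, 7.92 and 7.71, all below the other 8 libraries, though 685-1 was only just so. The fitted Tgfb3 change was -0.42 against WT (SE 0.16, adjusted p = 0.0922) and -0.54 against Sp3+/- (SE 0.17, adjusted p = 0.0425). Only the second passed, and it passed in 3 of 11 fits that left out a library (highest adjusted p 0.138, without Sp3-/- library 697-5).

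To add the 3 ligands together, levels were taken per kilobase of annotated exon (CPM per kb). By this length Tgfb3 made up most of the ligand total in every library. Its share ran from 59.2% in Sp3-/- library 697-5 to 81.8% in Sp3+/- library 697-4. The Tgfb2 share was 15.8% ± 2.3 in WT (SD, n = 4), 14.2% ± 3.0 in Sp3+/- (n = 4) and 6.08% ± 0.43 in Sp3-/- cells (n = 3), with no overlap between Sp3-/- and the others. The Tgfb1 share was 10.3% ± 3.1, 8.16% ± 0.52 and 25.2% ± 10.8 in the same order. An exact 2-sided permutation test of the Tgfb2 share gave p = 0.0571 for Sp3-/- against WT, the smallest that 3 against 4 libraries allow, and 0.171 after Benjamini-Hochberg adjustment over 9 comparisons. The shares depend on the exon length chosen. The length of the canonical transcript was an alternative chosen after seeing the data. With it the Tgfb1 share was 17.3% ± 4.7 in WT (n = 4) and 37.5% ± 13.8 in Sp3-/- cells (n = 3). The Tgfb2 share was 14.0% ± 2.2 and 4.85% ± 0.70, and the Tgfb3 share 68.7% ± 4.3 and 57.7% ± 13.1. In Sp3-/- libraries the Tgfb3 share then ran from 45.9% to 71.8% and the Tgfb1 share from 22.7% to 49.9%. By that length Tgfb3 was thus not most of the total in every library. The summed ligand level was 85.8 ± 11.1 CPM per kb in WT (SD, n = 4), 88.1 ± 13.8 in Sp3+/- (n = 4) and 68.7 ± 0.88 in Sp3-/- cells (n = 3).

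**Figure D2:**
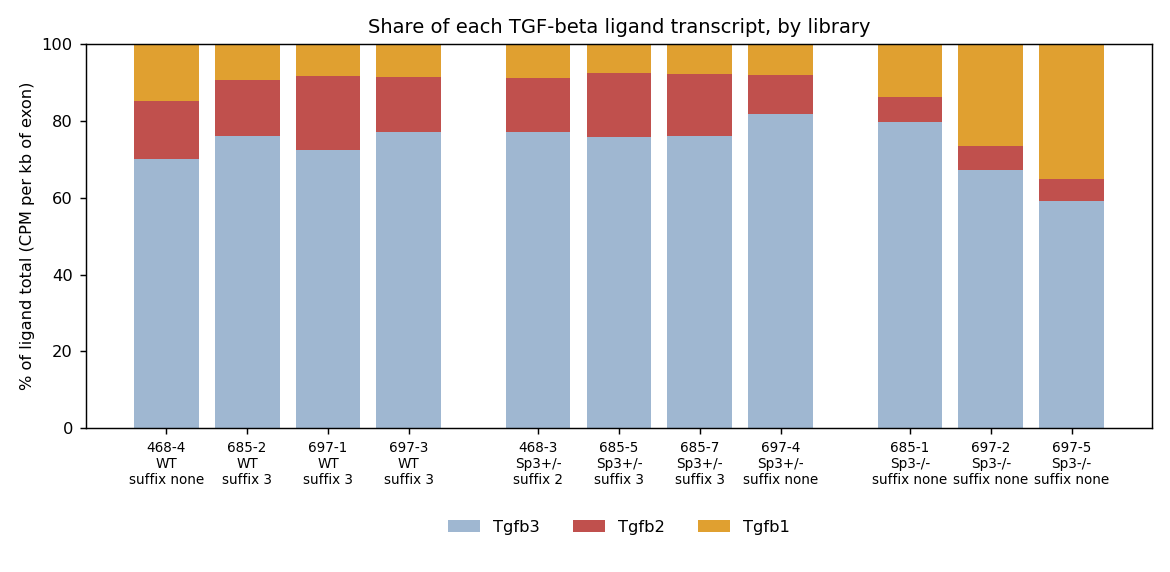
Share of Tgfb3, Tgfb2 and Tgfb1 in the summed ligand level (percent, from CPM per kilobase of exon) in each of the 11 libraries, labelled with genotype and title suffix. The Tgfb2 band is 5.65% to 6.50% in the Sp3-/- libraries and 10.0% to 19.2% in the others, and the Tgfb1 band varies from 13.8% to 35.2% among the Sp3-/- libraries.

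Of the signalling receptors, Tgfbr2, the type II kinase that binds ligand first, rose. It was at 7.37, 7.44, 7.28 and 7.26 log2 CPM in WT and at 7.30, 7.36, 7.32 and 7.19 in Sp3+/- libraries. In Sp3-/- cells Tgfbr2 was at 7.92, 8.25 and 8.0. The WT and Sp3+/- values lay within a narrow band and all 3 Sp3-/- values above it. Tgfbr2 was 1.66-fold higher than in WT (log2 fold change 0.73, SE 0.11, adjusted p = 0.0112) and 1.71-fold higher than in Sp3+/- cells (0.77, SE 0.09, adjusted p = 0.00126). It was called in 7 of 7 fits against WT that left out a library (highest adjusted p 0.0452, without 697-2) and with the suffix covariate (0.76, adjusted p = 0.0128).

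Tgfbr1, the type I kinase, lay higher in the same direction but with more spread. WT values were 6.47, 5.78, 6.46 and 6.06, Sp3+/- values 5.76, 6.28, 6.44 and 6.51, and Sp3-/- values 6.55, 7.27 and 7.12 log2 CPM. The lowest Sp3-/- value, of 685-1, was next to the highest Sp3+/- value, of 697-4, without overlap. The Tgfbr1 change was 0.80 against WT (SE 0.23, adjusted p = 0.0513) and 0.74 against Sp3+/- (SE 0.23, adjusted p = 0.0400). The first missed the threshold and passed in 2 of 7 fits without a library, those without WT 468-4 and without Sp3-/- 685-1. It also passed with limma-voom when a consensus correlation among libraries with the same leading number was added (0.79, adjusted p = 0.0406), but not with limma-voom alone (adjusted p = 0.0568). The second was lost in 6 of 11 such fits (highest adjusted p 0.147, without Sp3-/- library 697-2) and with the suffix covariate (0.44, adjusted p = 0.326). Acvrl1, the endothelial type I receptor, ranged from 5.43 to 6.31 in WT, from 5.39 to 5.70 in Sp3+/- and from 4.39 (685-1) through 5.13 (697-2) to 6.05 (697-5) in Sp3-/- libraries. Its change against WT was -0.46 (SE 0.39, adjusted p = 0.425), and the Sp3-/- libraries spanned a wider range than all the other libraries together.

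The co-receptor Eng fell against both other genotypes, by about as much as Tgfb2. Eng was at 6.51, 6.21, 6.12 and 6.20 log2 CPM in WT and at 6.13, 6.01, 6.04 and 5.69 in Sp3+/- libraries. The Sp3-/- libraries had 4.38, 4.31 and 4.66. All 3 were lower than the lowest other library, Sp3+/- 697-4, by more than the whole spread among the WT libraries. Eng was 3.51-fold lower than in WT (log2 fold change -1.81, SE 0.14, adjusted p = 0.00611) and 2.88-fold lower than in Sp3+/- cells (-1.52, SE 0.14, adjusted p = 0.000531). It was called in 7 of 7 fits without a library (highest adjusted p 0.0375, without 697-2) and with the suffix covariate (-1.85, adjusted p = 0.00343). Tgfbr3, the other co-receptor, was at 4.26, 5.85, 5.64 and 5.09 in WT, at 5.54, 5.12, 5.15 and 4.35 in Sp3+/- and at 5.15, 4.85 and 4.01 in Sp3-/- libraries. The groups overlapped, and the lowest values of WT and Sp3+/- were those of 468-4 and 697-4, the libraries without a title suffix. The Tgfbr3 change against WT was -0.56 (SE 0.41, adjusted p = 0.351) and changed sign with the suffix covariate (0.31, adjusted p = 0.589).

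The readouts Smad7 and Tgfbi, which TGF-beta is known to induce, did not pass in any comparison. Smad7, the feedback inhibitor of the type I receptor, was at 4.87, 5.04, 4.91 and 5.19 log2 CPM in WT, at 4.92, 5.29, 5.05 and 5.23 in Sp3+/- and at 5.18, 4.63 and 4.77 in Sp3-/- libraries. Tgfbi, a secreted matrix protein, was at 4.65, 4.57, 4.72 and 4.42 in WT, at 4.74, 4.75, 5.03 and 3.74 in Sp3+/- and at 4.03, 5.16 and 4.09 in Sp3-/- libraries. Sp3-/- library 697-2 had the highest Tgfbi of all 11 and the other Sp3-/- libraries were near the low end. The fitted changes against WT were -0.12 for Smad7 (SE 0.15, adjusted p = 0.581) and -0.05 for Tgfbi (SE 0.29, adjusted p = 0.921), and that of Tgfbi changed sign in 3 of 7 fits that left out a library. A p that misses the threshold does not show that these levels were equal.

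**Figure D3:**
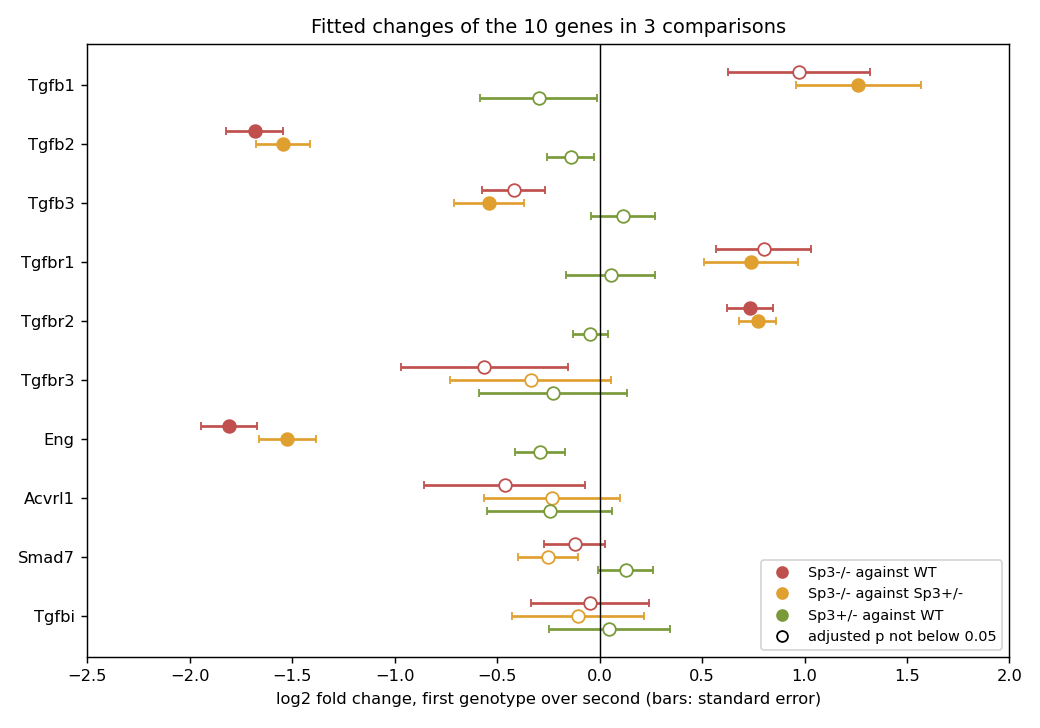
Log2 fold change (bars: standard error, edgeR) of each of the 10 genes in 3 comparisons, filled where the adjusted p was below 0.05. Tgfb2 and Eng lie between -1.81 and -1.52 and Tgfbr2 between 0.73 and 0.77 in both comparisons that involve Sp3-/- cells, and every value of Sp3+/- against WT lies between -0.30 and 0.13.

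In all, the 3 Sp3-/- libraries lay outside the range of the 8 WT and Sp3+/- libraries for 5 of the 10 genes, below it for Tgfb2, Tgfb3 and Eng and above it for Tgfbr1 and Tgfbr2. Of 14130 genes tested, 24.1% had their Sp3-/- libraries outside that range. Levels between genes can be compared only per length. Per kilobase of union exon, Tgfb3 led in each genotype (5.98 ± 0.20 log2 CPM per kb in WT, SD, n = 4) and Tgfbr2 followed (4.20 ± 0.08), with no overlap between them. Tgfb2 was next in WT at 3.74 ± 0.21 but eighth in Sp3-/- cells at 2.06 ± 0.12 (n = 3), and Eng was 5th in WT at 3.29 ± 0.17 and last in Sp3-/- cells at 1.48 ± 0.18. From Tgfb2 down, neighbours in the WT order overlapped from library to library, Tgfb2 and Tgfbr1 among them. Per kilobase of the canonical transcript Tgfb3 still had the highest mean in each genotype. Acvrl1 was next in WT, at 4.65 ± 0.39 log2 CPM per kb. In Sp3-/- cells Tgfb1 was next, at 5.21 ± 0.68 against 5.88 ± 0.23 for Tgfb3. The places below Tgfb3, and its lead in single libraries, thus depend on the length used.

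Cells of other types were also present, and their markers are given because macrophages make Tgfb1 and Tgfbi and endothelium makes Eng and Acvrl1. The 14 macrophage markers summed to 3642 CPM in WT library 468-4 and to 680 to 975 in the other WT libraries. In Sp3+/- they summed to 3362 in library 697-4 and to 416 to 724 in the others, and in Sp3-/- to 3444 in 685-1, 12433 in 697-2 and 11556 in 697-5. No macrophage marker was at 0 in any library, and 7 of the 14 rose against WT and 13 against Sp3+/-. Without Sp3-/- library 697-2 these counts were 0 and 2, with the suffix covariate 0 and 0, and without WT library 468-4 they were 14 and 14. The Tgfb1 level was high in the same libraries. Its 4 highest values were those of 697-5, 697-2, 468-4 and 685-1 and the next that of 697-4, which are the 5 libraries with the highest macrophage sums and also the 5 without a title suffix. The 5 highest Tgfbr1 values were in the same 5 libraries. They were 7.27 (697-2), 7.12 (697-5), 6.55 (685-1), 6.51 (697-4) and 6.47 log2 CPM (468-4). The next Tgfbr1 value, 6.46 in WT library 697-1, was close to that of 468-4. The part of macrophages in the Tgfb1 and Tgfbr1 levels was not tested, and suffix and macrophage sum cannot be told apart here. In the suffix-free libraries 468-4 and 697-4, whose macrophage sums were close to that of Sp3-/- library 685-1, Tgfb2 was at 6.37 and 6.09 against 4.83 in 685-1, Tgfbr2 at 7.37 and 7.19 against 7.92, and Eng at 6.51 and 5.69 against 4.38 log2 CPM. A fit of the 5 suffix-free libraries, with 1 WT and 1 Sp3+/- library, called no gene at all. Its log2 fold changes against WT were -1.67 for Tgfb2 (adjusted p = 0.293), -2.06 for Eng (adjusted p = 0.293), 0.68 for Tgfbr2 (adjusted p = 0.451) and 0.39 for Tgfb1 (adjusted p = 0.820).

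**Figure D4:**
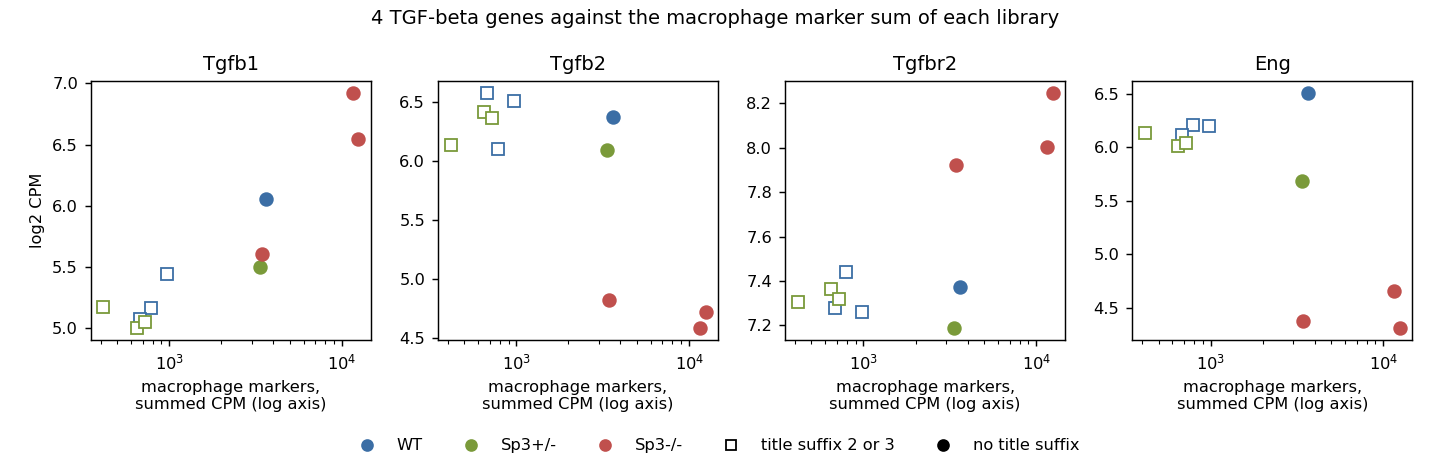
Level (log2 CPM) of Tgfb1, Tgfb2, Tgfbr2 and Eng against the summed CPM of 14 macrophage markers (log axis) in 11 libraries, coloured by genotype, filled where the title has no suffix. Libraries 468-4 (WT), 697-4 (Sp3+/-) and 685-1 (Sp3-/-) have sums of 3362 to 3642, and at those sums Tgfb1 spans 5.50 to 6.05, while Tgfb2 is 6.37, 6.09 and 4.83.

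The endothelial markers did not all move the same way, and the abundant ones weigh most in their sum. The 14 endothelial markers summed to 40.0 to 107 CPM in WT, 47.4 to 91.1 in Sp3+/- and 89.8 to 130 in Sp3-/- libraries. Between 1 and 5 of them were at 0 in a library, most often Cldn5, which was at 0 in 9 of the 11. Of the 11 tested, 2 rose and 1 fell against WT, with a median log2 fold change of -0.27, but single libraries set that sign. Without WT library 468-4 the median was 0.80 with 4 higher and 1 lower, and without Sp3-/- library 697-2 it was 0.06 with none called. With the suffix covariate it was -1.16 with none called, and against Sp3+/- cells it was 0.63 with 1 higher and 1 lower. Kdr, a receptor for vascular endothelial growth factor and the most abundant of them, was at 4.37 to 5.90 log2 CPM in WT and 4.13 to 5.15 in Sp3-/- libraries and did not pass (log2 fold change -0.40, adjusted p = 0.551), whereas Vwf, the clotting factor carrier, rose against WT (2.22, SE 0.63, adjusted p = 0.0478). Pecam1 and Cdh5, the defining junction genes, named after their values were seen, had 11 to 143 and 6 to 156 reads in the Sp3-/- libraries. Erg, named in the same way, had 2 to 7 reads in Sp3-/-, 17 to 97 in WT and 3 to 97 in Sp3+/- libraries. Among WT libraries Pecam1 (2.96 log2 CPM), Cdh5 (3.17), Tie1 (1.44), Emcn (4.74) and Vwf (4.39) were highest in 468-4. So were Sox17, Sox18 and Plvap, but not Kdr, Tek, Cldn5, Esam, Egfl7 or Erg. Eng (6.51) and Acvrl1 (6.31) were highest there too. Among Sp3-/- libraries Pecam1 (2.02) and Cdh5 (2.14) were highest in 685-1, where Acvrl1 was lowest (4.39). Except for Kdr and Vwf these markers were named after their values were seen. In WT libraries Eng had 1068 to 3233 reads and Pecam1 3 to 274, each with the most in 468-4. Raw reads of different genes are not comparable without their lengths. Of the lung mesenchyme markers 6 of 11 tested fell against WT, Vim among them (-0.46, SE 0.12, adjusted p = 0.0423). Without Sp3-/- library 697-2, 1 of 11 was lower, and with the suffix covariate 2 of 12 were lower and 1 higher. Epithelial markers summed to 28.7 to 51.5 CPM in WT, 34.9 to 55.7 in Sp3+/- and 66.1 to 183 in Sp3-/- libraries. Mesothelial markers summed to 689 to 1664, 1345 to 2376 and 2079 to 5593 CPM in the same order, so that Sp3+/- and Sp3-/- libraries overlapped. Erythroid markers summed to 2.31 to 7.00, 2.92 to 16.2 and 9.53 to 13.3 CPM, with the highest sum in an Sp3+/- library. Epithelial Krt18 (1.73, adjusted p = 0.0235) and erythroid Alas2 (1.66, adjusted p = 0.0303) rose against WT, and the change of mesothelial Upk3b was 0.98 (adjusted p = 0.0804). Without Sp3-/- library 697-2 no epithelial or erythroid marker was called against WT. Of the 6 mesothelial markers, 3 rose against WT and 3 against Sp3+/-. Against WT this count was 1 without 697-2, 1 with the suffix covariate and 5 without WT library 468-4. The part of these cells in the values of the 10 genes was not tested.

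The rest of the pathway was read from 7 lists with 87 genes, of which 81 were tested. These lists were chosen with earlier results of these data known, so the counts below describe them and test nothing about the pathway. Against WT 31 of the 81 passed in Sp3-/- cells (38.3%), 26 lower and 5 higher. Of all genes tested 18.5% passed, 1370 lower and 1229 higher. Against Sp3+/- cells 38 passed (46.9%), 29 lower and 9 higher, where 25.5% of 14130 genes did, 1769 lower and 1838 higher. In Sp3+/- against WT none of the list genes passed. The shares over all genes are those to set beside the count of each list below. The count against WT was 5 without Sp3-/- library 697-2, 11 to 16 without WT library 685-2, 697-1 or 697-3 or Sp3-/- library 697-5, 16 with the suffix covariate and 36 without WT library 468-4. In the paragraphs that follow at most 3 genes per list were picked by size of change. The pick was among genes called against WT whose Sp3-/- and WT libraries did not overlap. The separate ranges of these genes thus follow from the rule and are no further result. Any other gene was named after its values were seen.

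**Figure D5:**
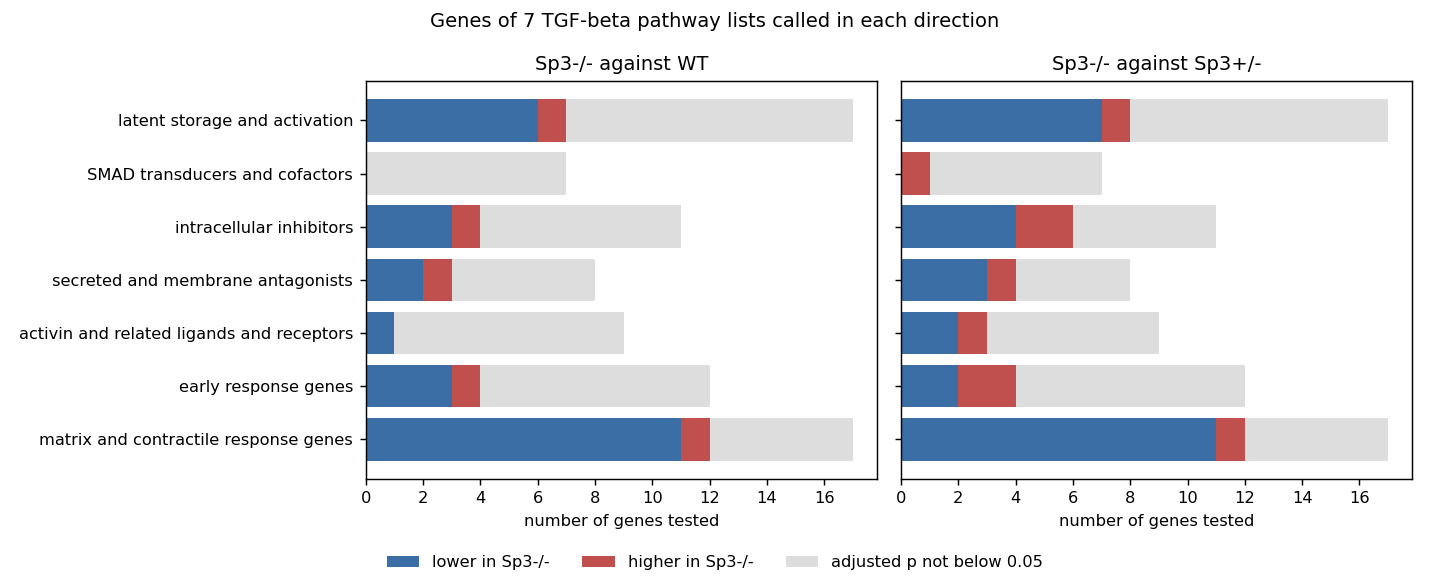
Number of genes tested in each of 7 TGF-beta pathway lists that were lower (blue) or higher (red) in Sp3-/- cells at an adjusted p below 0.05, or did not pass (grey), against WT and against Sp3+/-. The matrix and contractile list has 11 lower and 1 higher of 17 against WT, and the list of SMAD transducers and cofactors has none. The lists were chosen with earlier results of these data known.

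Among genes that store and release latent ligand, 6 fell and 1 rose against WT of 17 tested (list median -0.39, all genes -0.00 on the log2 scale). Ltbp1, which tethers the latent complex to matrix, was 4.34-fold lower (log2 fold change -2.12, SE 0.41, adjusted p = 0.0192), at 6.34 to 6.66 log2 CPM in Sp3-/- and 7.26 to 9.01 in WT libraries. Fbn1, the microfibril protein fibrillin that holds that complex, was 3.26-fold lower (-1.71, SE 0.38, adjusted p = 0.0266). Nrros, which presents latent TGF-beta on macrophages and microglia, was 4.78-fold higher (2.26, SE 0.56, adjusted p = 0.0339). WT library 468-4 (4.19) and Sp3+/- library 697-4 (3.81), the libraries of their genotypes with the highest macrophage sums, also had the highest Nrros of their genotypes. The other genes that fell were Ltbp2 (-1.51), Ltbp3 (-0.50), Thbs1 (-1.12), whose product activates latent TGF-beta, and Emilin1 (-1.42). Ltbp1 was called in 3 of 7 fits without a library, and Fbn1 and Nrros in 2 of 7. With the suffix covariate the changes were -0.91 for Ltbp1 (adjusted p = 0.0161), -0.80 for Fbn1 (0.0755) and 1.26 for Nrros (0.0879).

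None of the 7 SMAD transducers and cofactors tested passed against WT (list median -0.02), with edgeR, and against Sp3+/- cells only Ep300, a histone acetyltransferase, did (0.31, adjusted p = 0.0474). Of the 11 intracellular inhibitors tested 3 fell and 1 rose. Smad6, an inhibitory SMAD, was 1.52-fold lower (-0.61, SE 0.14, adjusted p = 0.0291), and Pmepa1, a membrane protein that sequesters receptor SMADs, 1.44-fold lower (-0.53, SE 0.14, adjusted p = 0.0406). Smurf1, a ubiquitin ligase for SMADs and receptors, fell as well (-0.38). Bambi, a decoy receptor, was 2.33-fold higher (1.22, SE 0.28, adjusted p = 0.0277), at 3.57 to 4.61 log2 CPM in Sp3-/- and 2.81 to 3.45 in WT libraries. These calls held in 2 of 7 fits without a library for Smad6 and Bambi and in 1 of 7 for Pmepa1, and none of the 3 held with the suffix covariate (adjusted p 0.131, 0.0832 and 0.167 for Smad6, Bambi and Pmepa1).

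Among the 8 secreted and membrane antagonists tested 2 fell and 1 rose against WT, all small leucine-rich proteoglycans that bind TGF-beta. Aspn was at 4.14 to 7.03 log2 CPM in WT and at -0.56, 1.18 and -0.79 in the Sp3-/- libraries, a log2 fold change of -5.47 (SE 1.00, adjusted p = 0.0166). Bgn was 2.65-fold lower (-1.41, SE 0.23, adjusted p = 0.0132). Dcn went the other way, 2.50-fold higher (1.32, SE 0.29, adjusted p = 0.0266), at 9.42 to 10.64 in Sp3-/- and 8.36 to 9.03 in WT libraries. Aspn and Bgn were each called in 6 of 7 fits without a library, not in that without 697-2 (adjusted p 0.0547 and 0.0558), and both with the suffix covariate (-3.59, adjusted p = 0.0326, and -1.03, adjusted p = 0.0183). Dcn was called in 3 of 7 and had an adjusted p of 0.0590 with the suffix covariate. Of 9 activin-related ligands and receptors 1 fell against WT, the muscle growth inhibitor Mstn (-2.46, adjusted p = 0.0151), whose level was low in WT (mean 1.73 log2 CPM).

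Of 12 early response genes 3 fell and 1 rose against WT. Snai2, a repressor of epithelial genes, was 3.72-fold lower (-1.89, SE 0.21, adjusted p = 0.00733), and its relative Snai1 fell as well (-0.69, adjusted p = 0.0384). Sphk1, a sphingosine kinase, was 2.41-fold lower (-1.27, SE 0.31, adjusted p = 0.0320), and Bhlhe40, a circadian and hypoxia-responsive repressor, was 1.79-fold higher (0.84, SE 0.18, adjusted p = 0.0255). Snai2 was called in 7 of 7 fits without a library, Bhlhe40 in 4 of 7 and Sphk1 in 2 of 7. With the suffix covariate Snai2 (-1.37, adjusted p = 0.0132) and Bhlhe40 (0.82, adjusted p = 0.0488) passed, Sphk1 did not (-0.98, adjusted p = 0.0877), and 1 of the 12 was lower and 1 higher. Without Sp3-/- library 697-2, 1 was lower and none higher. The list median was 0.19, against -0.00 for all genes, although most of the calls were lower.

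Of 17 matrix and contractile response genes 11 fell and 1 rose against WT (list median -1.58). Cnn1, the smooth muscle calponin, was at 8.82, 9.02, 9.29 and 10.22 log2 CPM in WT and at 6.06, 6.29 and 5.20 in Sp3-/- libraries, 11.4-fold lower (-3.51, SE 0.45, adjusted p = 0.00872). Itga11, a collagen receptor of myofibroblasts, was 7.63-fold lower (-2.93, SE 0.57, adjusted p = 0.0192). Eln, which encodes elastin, was at 7.04 to 10.53 in WT and at 4.54, 5.33 and 0.37 in Sp3-/- libraries (-5.04, SE 1.27, adjusted p = 0.0357), so that library 697-5 stood far below the other Sp3-/- libraries. Acta2 (-2.29), Tagln (-1.68), Postn (-2.26), Lox (-0.77), Tnc (-2.18), Fbln5 (-1.58), Nox4 (-1.73) and Tgfb1i1 (-1.42) also fell, and Timp1 (1.11), an inhibitor of matrix proteases, rose. Cnn1 was called in 7 of 7 fits without a library, Itga11 in 6 of 7 (not without Sp3-/- library 697-5, adjusted p = 0.0538) and Eln in 1 of 7, that without WT library 468-4. With the suffix covariate 6 of the 17 were lower and 1 higher, Cnn1 among the former (-3.29, adjusted p = 0.00830), and Eln (-2.48, adjusted p = 0.125) and Itga11 (-1.46, adjusted p = 0.0778) did not pass. Without Sp3-/- library 697-2, 3 were lower and none higher. Of the 15 genes picked by the rule in the 7 lists, 2 (Snai2 and Cnn1) were called in every fit against WT that left out a library and 6 with the suffix covariate.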

How the data were processed

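The authors sequenced 50 bp single end reads of 11 RNA libraries. Per the submitters' processing notes and the study's methods, reads were checked with FastQC 0.10.1, aligned to mm10 with STAR 2.4.5a and counted per gene with HTSeq, and the authors deposited these counts without normalization. The annotation version and strand setting are not given in the sources used here. Tallies of reads outside genes (38.4% to 40.9% per library) were left out.

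A gene entered a fit if its CPM exceeded 1 in any library used. The quasi-likelihood test of edgeR 4.0.16 (R 4.3.3, TMM factors) was adjusted by Benjamini-Hochberg over all genes, with a threshold of 0.05, and standard errors were derived from the test statistic. Sp3-/- against WT used those 7 libraries, the other comparisons all 11. The study used limma-voom with a consensus correlation. Such a fit (correlation within the first label number, chosen here), limma-voom alone (limma 3.58.1) and DESeq2 1.42.0 were run as alternatives. Library values are log2 CPM with a prior count of 2. The script was tested on simulated data. The 10 genes and all lists were chosen with earlier results of these data known. From each pathway list, the named genes are up to 3 with the largest change among those called against WT, if their mean exceeded 2 log2 CPM and the genotypes did not overlap. From the marker lists they are the 2 most abundant endothelial and macrophage genes and the most abundant gene of each other list. The macrophage genes were Lyz2 (log2 fold change against WT 2.73, adjusted p = 0.0423) and Laptm5 (2.44, adjusted p = 0.0629). Ccn2 and Adgre1 were found under their older symbols Ctgf and Emr1. Shares were tested with scipy 1.17.1. Exon lengths came from GENCODE (mouse release 39, lengths only), and promoter windows from RefSeq on GRCm38.p6.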

Additional observations from a re-analysis of the deposited data

Results flagged for a closer look

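Of 40 groups of 4 libraries checked for a value far from the rest (gap to the nearest over the group's range above 0.829), 5 stood out, and chance gives about 1 in 20. In WT, library 468-4 had a Tgfb1 share of 14.9% of the ligand total, against at most 9.33% in the other WT libraries. Library 697-1 had a Tgfb2 share of 19.2%, against at most 15.1% in the other WT libraries. The macrophage marker sum of WT library 468-4 was 3642 CPM, with 680 to 975 in the others. Among Sp3+/- libraries, 697-4 stood apart with a macrophage marker sum of 3362 CPM, and the same library had a Tgfb3 level of 8.86 log2 CPM, with at most 8.34 in the others. The libraries 468-4 and 697-4 are those of WT and Sp3+/- without a title suffix. Groups of 3 were not checked, so no Sp3-/- library could be marked.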

How the results depend on the processing

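Tgfb2, Eng and Tgfbr2 kept their direction and passed the test in both comparisons with Sp3-/- cells under every alternative run except the fit of libraries without a title suffix (1 WT, 1 Sp3+/- and 3 Sp3-/-, where a lone library is assumed to vary like the others), which called 0 of all genes, 0 of the 10 genes and 0 pathway genes in each comparison. Against WT 2599 genes, 3 of the 10 and 31 pathway genes were called. DESeq2 called 4297 genes and 5 of the 10, a fit of all 11 libraries 3977 and 5, and the suffix covariate 1329 genes and 16 pathway genes. Leaving out a library gave 282 to 4179 genes, 3 to 5 of the 10 and 5 to 36 pathway genes, lowest for genes and pathway genes without Sp3-/- library 697-2 and highest without WT library 468-4. Against Sp3+/- 3607 genes, 6 of the 10 and 38 pathway genes were called, with the suffix covariate 763, 3 and 13, and without a library 1490 to 4245, 3 to 7 and 23 to 42. The causes were not tested.

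With the first label number as a replicate block, 4031 genes and 5 of the 10 (Tgfb1 and Tgfbr1 added) were called against WT, and 2956 genes, 4 of the 10 (Tgfb3 and Tgfbr1 lost) and 28 pathway genes against Sp3+/-. Of 14 pairs of libraries of different genotype with the same number 7 deviated together (correlation above 0.1), and of 26 pairs with different numbers 10 did. All 5 pairs numbered 685 were above 0.1 (0.105 to 0.293), but pairs numbered 468 and 697 were not throughout, and the labels do not say what the number marks, so the libraries were not treated as paired. Whether they share a litter or batch was not tested.

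Changes of sign concerned genes that did not pass. With the suffix covariate the log2 fold change against WT was 0.31 for Tgfbr3 and 0.26 for Tgfbi, against Sp3+/- 0.59 and 0.28, and Sp3+/- against WT -0.020 for Tgfbi. Among libraries without a suffix the values were 0.49 for Tgfbr3 and 0.0041 for Smad7 against WT, 0.39 for Tgfbr3 and 0.79 for Tgfbi against Sp3+/-, and 0.095 and -0.91 for Tgfbr3 and Tgfbi in Sp3+/- against WT. Without a library Tgfbi ranged from -0.53 to 0.14 against WT and from -0.58 to 0.10 against Sp3+/-, and Acvrl1 from -0.76 to 0.089 against Sp3+/-. In Sp3+/- against WT Tgfb3 ranged from -0.035 to 0.22, Tgfbr1 from -0.068 to 0.19 and Tgfbi from -0.11 to 0.26. Depth limits the genes with few reads most, such as Tgfbr3 with 157 and Tgfbi with 166 in the smallest Sp3-/- library.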
